A study of Mus musculus with 10 samples.

Results

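The SoxF genes Sox7, Sox17 and Sox18 were followed through H3K27me3 CUT&Tag profiles of IκBα WT and IκBα KO long-term hematopoietic stem cells (LT-HSCs). The 3 genes were taken by name as group F of the Sox family, out of 21951 annotated protein-coding genes. Each gene was read at its promoter, which ran from 5 kb before to 100 bp past each annotated transcription start site (TSS), and over its body. CUT&Tag tethers a transposase to an antibody, here against H3K27me3, and sequences the DNA released around the bound mark. LT-HSCs were sorted from the fetal liver of E14.5 mouse embryos as Lin-Sca1+cKit+ cells that were CD48- and CD150+. WT and KO embryos came from matings of mice heterozygous for a targeted null allele of Nfkbia, the gene of IκBα. The study's matings also used mice with a Gfi1:tomato reporter, and whether embryos of these libraries carried it is not stated. The KO was constitutive, so every cell of a KO embryo lacked the gene and not the stem cells alone. Each genotype had 3 libraries, and replicates 1 and 2 of each were read at 75 bp while replicate 3 of each was read at 50 bp. The series held 10 samples, and its 4 IκBα CUT&Tag samples were not analysed here.

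H3K27me3 is laid down by the Polycomb complex PRC2 and marks CpG-rich promoters of developmental genes that are silent or held at low output. SoxF proteins are transcription factors that bind DNA through an HMG box and act in endothelial, arterial and lymphatic development. Sox17 is also needed for definitive endoderm and for the maintenance of fetal hematopoietic stem cells, and it is switched off as these cells pass to the adult program. Sox7 acts in hemogenic endothelium and early blood precursors, where its loss of expression goes with blood commitment. Sox18 acts in arterial and lymphatic endothelium. The study asked whether IκBα, an inhibitor of NF-κB that has also been found on chromatin together with PRC2, alters this mark in stem cells.

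H3K27me3 peaks covered Sox17 and Sox7 in 5 of the 6 libraries and were absent from Sox18 in all 6. Sox17 and Sox7 each had promoter and gene body peaks in WT replicates 1 and 2 and in KO replicates 1, 2 and 3, and neither had a peak in WT replicate 3. Over all protein-coding genes, 10.6%, 13.0% and 3.50% had a promoter peak in WT replicates 1, 2 and 3, while the share was 12.9%, 12.2% and 8.11% in KO replicates 1, 2 and 3. A promoter peak in any library was found for 15.9% of genes, and 84.1% of genes had none, like Sox18. The exact pattern of Sox7 and Sox17, in which WT replicate 3 alone lacked the peak, was shared by 3.72% of genes. A peak in any 2 WT libraries and all 3 KO libraries was found for 3.89% of genes, and a peak in all 6 libraries, which no SoxF gene had, for 2.66%.

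WT replicate 3 stood apart from the other libraries and bears on every comparison of genotype below. It held 1047 peaks covering 1.90 Mb, against 2325 to 6013 peaks covering 7.61 to 27.8 Mb in the other 5 libraries. Its median peak had a total signal of 4303, against 10398 to 13972 elsewhere. By the study's listing it had the fewest uniquely mapped reads of the H3K27me3 libraries, and KO replicate 3 the next fewest. KO replicate 3 held 2325 peaks. Of the 1400 genes with a promoter peak in all of the other 5 libraries, 58.3% had none in WT replicate 3. Strongly marked genes were among them. Among 202 genes with at least 2 times the median peak in each of the other 5 libraries, 39.6% lacked a peak in WT replicate 3. The Hox genes, textbook PRC2 targets, had promoter peaks at 29, 29 and 10 of 39 genes in WT replicates 1, 2 and 3 and at 31, 30 and 23 of them in the KO libraries. Actb, Gapdh and Ptprc had none, as did all 16 HSC marker genes examined and 84.1% of all coding genes. Of genes that mark other cells of the fetal liver, 2 of 12 endothelial, 3 of 8 hepatoblast, 1 of 7 erythroid, 1 of 5 megakaryocyte and 0 of 6 macrophage and granulocyte genes had a promoter peak in any library, against 15.9% of all coding genes. Peaks of a repressive mark do not count cells, so the purity of the sort could not be read from them. No peak lay at Nfkbia in any library, so the mark gave no check of the genotype labels.

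The 3 genes share an HMG box whose coding sequence crosses the end of the first coding exon. At Sox17 the highest H3K27me3 signal over the coding exons fell on this exon in 3 libraries and on the last exon in 2. In KO replicate 3 the maximum was higher in the peak upstream of these exons, within a 5′ UTR exon, at 13 against 12. In WT replicate 2 it was 12 in both peaks. The stretches with the highest signal over the coding exons are printed from the GRCm38 genome, 5′ to 3′ along the gene. The first is the end of the first coding exon of Sox17 at chr1:4493100-4493302 (minus strand), in which capitals mark the highest-signal stretches of WT replicate 2 at the 5′ end, of KO replicate 1 in the middle and of WT replicate 1 near the 3′ end. The next lies in the last Sox17 exon at chr1:4492207-4492444 (minus strand), which as a whole was the highest stretch of KO replicate 2 and in which capitals mark that of KO replicate 3.
Sox17 first coding exon: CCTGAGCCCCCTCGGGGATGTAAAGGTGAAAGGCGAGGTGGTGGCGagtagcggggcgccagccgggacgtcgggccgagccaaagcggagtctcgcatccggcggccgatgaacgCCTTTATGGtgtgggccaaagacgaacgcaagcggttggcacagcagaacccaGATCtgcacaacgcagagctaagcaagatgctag
Sox17 last exon: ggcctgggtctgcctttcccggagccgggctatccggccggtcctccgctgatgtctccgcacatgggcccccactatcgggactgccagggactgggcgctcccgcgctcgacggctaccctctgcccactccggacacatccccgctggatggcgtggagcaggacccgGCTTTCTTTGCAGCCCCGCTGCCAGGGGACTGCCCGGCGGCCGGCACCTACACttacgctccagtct
All 5 stretches were coding sequence, between 3134 and 4166 bp downstream of the TSS by their midpoints, and the printed parts held 19 and 21 CpG dinucleotides.

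At Sox7 the highest stretch lay at most 282 bp from the TSS in the KO libraries and farther upstream in WT replicates 1 and 2. The sequence upstream of the TSS is chr14:63943041-63943240 (plus strand), with the highest stretch of WT replicate 2 in capitals. For Sox18 the matching end of the first exon, chr2:181671182-181671297 (minus strand), had no peak and is shown for comparison, with capitals at the 96 of 116 bases that are identical to the end of the Sox17 exon printed above.
Sox7 upstream: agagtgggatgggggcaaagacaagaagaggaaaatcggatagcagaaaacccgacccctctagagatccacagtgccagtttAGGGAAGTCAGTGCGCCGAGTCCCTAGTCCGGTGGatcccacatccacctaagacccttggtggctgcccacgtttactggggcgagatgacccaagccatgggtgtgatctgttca
Sox18 first exon: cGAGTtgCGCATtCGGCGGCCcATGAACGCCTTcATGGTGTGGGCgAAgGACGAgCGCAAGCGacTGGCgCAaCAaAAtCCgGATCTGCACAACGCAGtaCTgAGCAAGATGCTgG
Over these 116 bases, Sox17 and Sox18 were 82.8% identical. The exon ends were thus similar in sequence, while their marking differed, since the Sox17 end lay inside a peak in 5 libraries and the Sox18 end in none. The authors kept only reads that mapped to a single place.

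**Figure D1:**
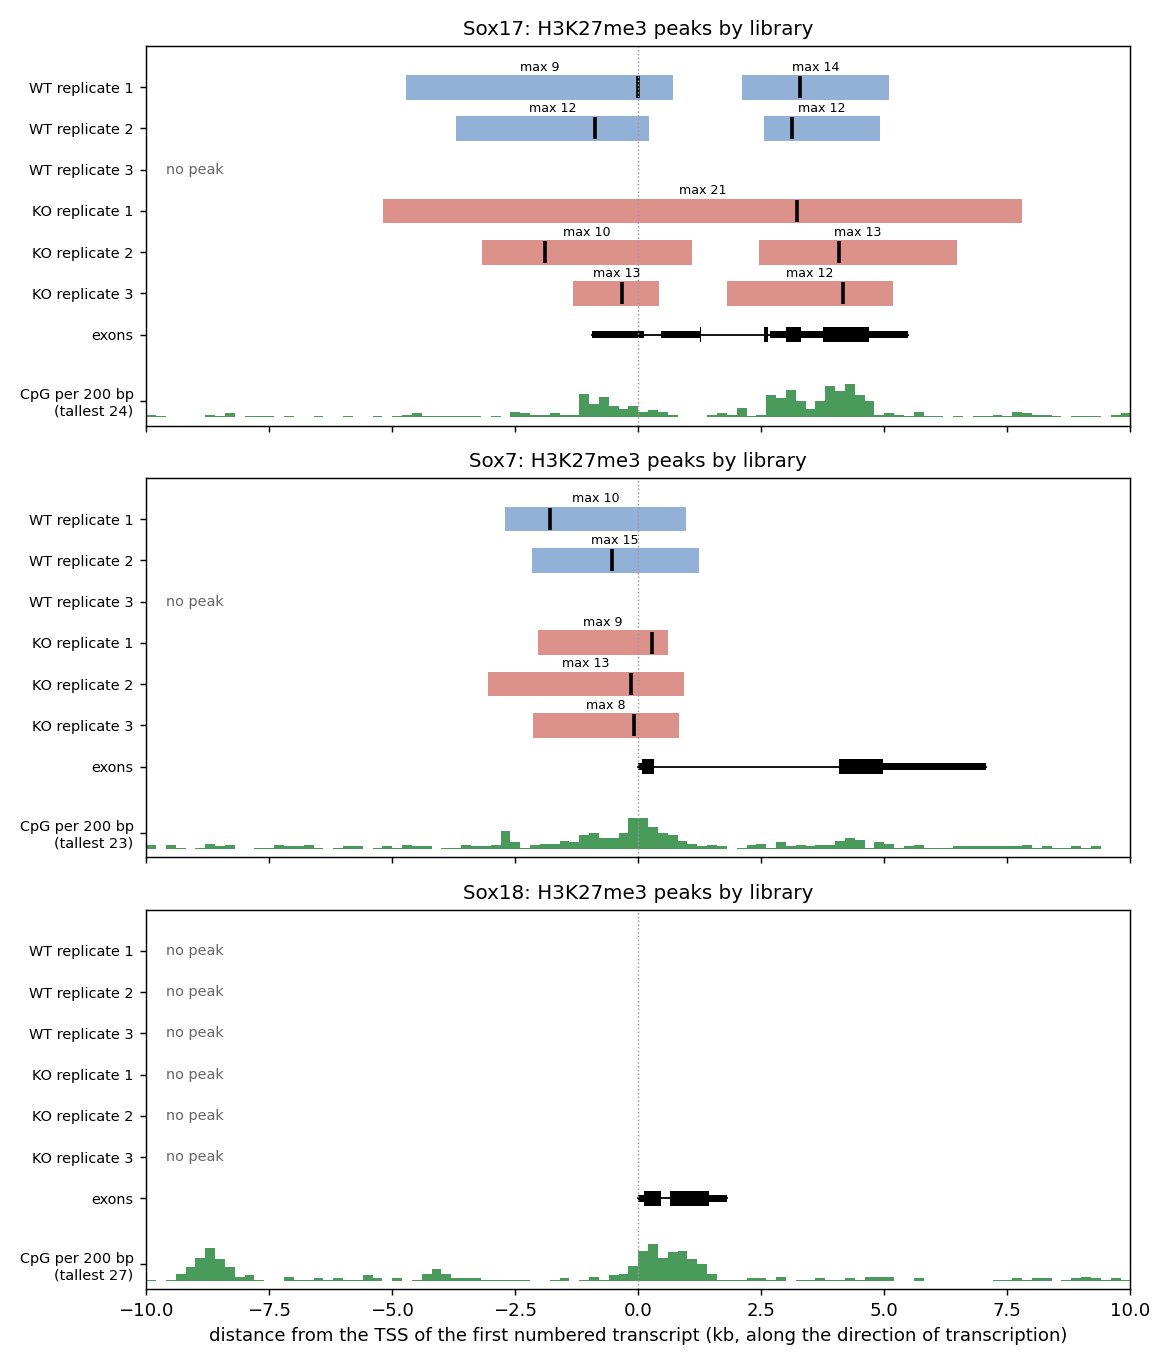
H3K27me3 peaks (bars) of each library around Sox17, Sox7 and Sox18, by distance from the TSS in kb along the direction of transcription, WT in blue and KO in red. Black ticks mark the middle of the highest-signal stretch and "max" its signal; thick and thin black bars are coding and other exons of all annotated transcripts, and green bars count CpG per 200 bp. Sox17 has an upstream and a gene-body block, which join in KO replicate 1, Sox7 has a single block over its TSS, and Sox18 has none.

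Sox17 (ENSMUSG00000025902.13, chr1:4490931-4497354, minus strand, 8 annotated TSSs) carried the broadest mark of the 3 genes, with the highest total signal. Distances are given from the TSS of its first numbered transcript, at 4496413. The mark fell into 2 blocks. The gene-body block covered the coding exons from 2550 bp onward and the upstream block covered the outermost 5′ exons and the sequence before them. A short coding segment at 1258 to 1277 bp, annotated in some transcripts, lay between the blocks. In WT replicate 1 the blocks were 2994 and 5422 bp wide and in WT replicate 2 they were 2363 and 3917 bp wide. In KO replicate 2 they were 4029 and 4286 bp wide, and in KO replicate 3 they were 3371 and 1744 bp wide. The gap between them was 1392, 2328, 1343 and 1377 bp in these 4 libraries. In KO replicate 1 no gap was called and a single peak ran over 12973 bp. That peak ranked 140 by total signal among the 4904 peaks of its library.

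The parts of Sox17 covered in all 5 libraries were chr1:4491505-4493867, with 2363 bp of coding and UTR exons and introns, and chr1:4496196-4497732, with 1537 bp around the 5′ exons. The gap shared by 4 libraries, chr1:4494612-4495311, lies between these parts. It held 0.714 CpG per 100 bp, against 7.41 in the gene-body core and 4.55 in the upstream core. The parts covered in all 5 libraries were thus CpG-rich and the shared gap CpG-poor. The farther upstream sequence that the upstream block reached in some libraries was not part of these counts. The upstream block also overlapped Gm37587, a processed transcript of the opposite strand at chr1:4496551-4499558, and the mark has no strand that could assign it to either.

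The total signal at Sox17, summed over its peaks, was 33704 in WT replicate 1 and 32599 in WT replicate 2. It was 64130, 35802 and 30347 in KO replicates 1, 2 and 3. Total signal is the area under the fragment coverage and was not scaled for depth, so it was also divided by the median peak of the same library. On that scale Sox17 stood at 2.73 and 2.58 times the median peak in the WT libraries with a peak, and at 4.59, 2.84 and 2.92 times in KO replicates 1, 2 and 3. On this scale each of the 3 KO values lay above both WT values, and KO replicate 1 stood apart from the other 4. Centred instead on the median of the merged regions, as for the test below, the log2 signal was 1.38 and 0.87 in WT replicates 1 and 2, compared with 1.84 in KO replicate 1, 1.17 in KO replicate 2 and 2.12 in KO replicate 3, and the genotypes overlapped. WT replicate 3 had no called peak, and its weakest peak elsewhere lay at 0.777 times its median. For the test below it was set to that weakest peak, which centred to a log2 signal of 0.0. The maximum signal, the highest fragment coverage inside the peaks, was 14 and 12 in WT replicates 1 and 2. It was 21, 13 and 13 in the KO libraries, against medians over all peaks of 9 to 10 in these libraries.

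Per block, the ratio to the median peak for the gene-body block was 1.25 and 1.14 in WT replicates 1 and 2, compared with 1.74 and 1.95 in KO replicates 2 and 3. For the upstream block it was 1.48 and 1.44 in these WT libraries, compared with 1.10 and 0.967 in these KO libraries. In these 4 libraries the KO values were therefore above the WT values in the gene-body block and below them in the upstream block. The blocks were not tested separately over these 4 libraries, for which an exact permutation test could give no p under 0.333. The highest stretch of the gene-body block lay in coding exons in all 5 libraries. That of the upstream block was centred in a 5′ UTR exon in WT replicates 1 and 2 and KO replicate 3, and outside the gene, at -1893 bp from the TSS, in KO replicate 2.

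Sox7 (ENSMUSG00000063060.6, chr14:63943673-63950732, plus strand, 1 TSS) carried a single, narrower peak across its TSS. The peak was 3683 and 3391 bp wide in WT replicates 1 and 2, and its width was 2657, 3990 and 2954 bp in KO replicates 1, 2 and 3. It began between -3058 and -2046 bp from the TSS and ended 610 to 1225 bp downstream, in the first intron. The part covered in all 5 libraries, chr14:63941627-63944283, took in the whole first exon, and the last exon, which holds most of the coding sequence, was never covered. The middle of the highest stretch lay at -1784, -532, -140 and -92 bp from the TSS in WT replicates 1 and 2 and KO replicates 2 and 3. In KO replicate 1 it lay 282 bp downstream, in the first coding exon.

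Total signal at Sox7 was 16566 in WT replicate 1 and 17974 in WT replicate 2. It was 8721, 20708 and 9759 in KO replicates 1, 2 and 3. The WT values were 1.34 and 1.42 times the median peak and the KO values 0.624, 1.64 and 0.939 times. The KO values fell on both sides of the WT values. The peak of KO replicate 1 ranked 3801 among the 4904 peaks of that library and lay close to its weakest peak, at 0.479 times the median. The maximum signal was 10 and 15 in WT, compared with 9, 13 and 8 in KO.

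Sox17 exceeded Sox7 in every library in which they were called, by 2.04 and 1.82 times in WT replicates 1 and 2 and by 7.36, 1.73 and 3.11 times in KO replicates 1, 2 and 3. Total signal grows with width, and the order was not kept per covered base. The mean signal per covered base was 4 and 5.19 at Sox17 against 4.50 and 5.30 at Sox7 in WT replicates 1 and 2. In KO replicates 1, 2 and 3 it was 4.94, 4.31 and 5.93 at Sox17 against 3.28, 5.19 and 3.30 at Sox7. Per base, Sox17 was the higher in KO replicates 1 and 3 and the lower in the other 3 libraries. By total signal and by its ratio to the median peak, KO replicate 1 held the highest value of Sox17 and the lowest of Sox7.

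**Figure D2:**
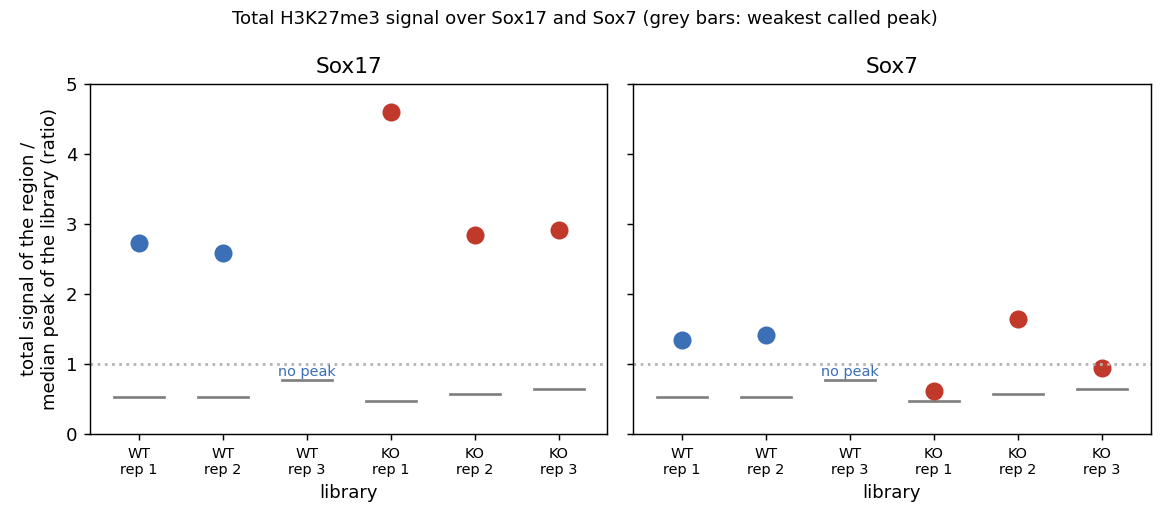
Total H3K27me3 signal over Sox17 and Sox7 in each library, as a ratio to the median peak of that library (points, WT blue, KO red), with the dotted line at the median peak. Grey bars give the weakest peak called in each library. Sox17 lies at 2.58 to 4.59 and Sox7 at 0.624 to 1.64, and neither has a point in WT replicate 3.

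Sox18 (ENSMUSG00000046470.5, chr2:181669836-181671640, minus strand, 1 TSS) had no peak over its promoter or body in any library of either genotype. The nearest peak was 90.3, 210 and 631 kb away in WT replicates 1, 2 and 3 and 90.8, 90.4 and 363 kb away in KO replicates 1, 2 and 3. The closest of these lay at the promoter of Myt1, a neural zinc finger factor gene 91.7 kb from the Sox18 TSS, which had a peak in WT replicate 1 and KO replicates 1 and 2. The peak files used here list only peaks, so signal under the calling threshold at Sox18 was not read.

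CpG content was alike at Sox18 and Sox7 close to the TSS, and over wider stretches its order depended on the window. In 1 kb around the TSS the observed over expected CpG ratio was 0.769 at Sox18, with 75 CpG, and 0.771 at Sox7, with 82 CpG. Over the 2657 bp of the Sox7 core it was 0.633, with 5.42 CpG per 100 bp, and at the same distances from the Sox18 TSS it was 0.477, with 3.65 CpG per 100 bp. This stretch ends 610 bp past the TSS, and within 20 kb on either side of the TSS Sox18 had 1.32 and Sox7 1.26 CpG per 100 bp. The 1 kb median over 21938 coding genes was 0.553, and it was 0.625 for genes with a promoter peak in any library and 0.517 for genes with none. Of the 3096 genes whose ratio was within 0.05 of that of Sox18, 19.4% had a promoter peak. At Sox17 the ratio was 0.413 around the TSS of the first numbered transcript and 0.676 around its outermost TSS. The same windows were searched on both strands for AACAAT, a Sox binding motif, for AGGTCA, the half-site of retinoic acid receptors, and for the NF-kappaB consensus. AACAAT was in none of the windows of the 3 genes and in 28.4% of all windows. AGGTCA was found once, at Sox7, and in 41.9% of all windows, and the NF-kappaB consensus once, at Sox7, and in 14.9%. A match is a run of letters and not a binding site.

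The marks at Sox17 and Sox7 were isolated. No other peak lay within 100 kb of either gene in any library. The nearest other peak was 518 to 522 kb from Sox17 and 117 to 643 kb from Sox7. The coding neighbours within 100 kb had no promoter peak: Rp1, a photoreceptor gene, beside Sox17, and Pinx1, a telomerase inhibitor gene, 4930578I06Rik and Rp1l1 beside Sox7. Of the 10 neighbours of Sox18, Myt1 had a promoter peak and Tcea2, Rgs19, Lkaaear1, Oprl1, Gm29797, Prpf6, Samd10, Zfp512b and Uckl1 had none.

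No difference between WT and KO at Sox17 or Sox7 passed the test. Total signal was compared over the merged regions called in at least 3 libraries, on the log2 scale and centred on each library's median, with limma. WT replicate 3 had no peak at either gene and was set to its smallest called signal, 3344, as it was for 75.3% of the 3626 regions. This set value centred to a log2 signal of 0.0 at both genes. At Sox7 it thus lay above the called KO replicate 1, at -1.03. At Sox17 the signal was higher in KO by 0.96 ± 0.46 (SE, log2, 3 libraries per genotype; limma, adjusted p = 0.999). At Sox7 it was lower by 0.18 in KO (difference of -0.18 ± 0.46, limma, adjusted p = 0.999). Of all regions, 0% passed an adjusted p of 0.05, and 67 of 3626, or 1.85%, had an unadjusted p under 0.05, Sox17 among them and Sox7 not. Of these 67, 47, or 1.3% of all regions, were higher in KO. This direction depended on the scaling. Centred on regions called in all 6 libraries, 4 were higher and 52 lower in KO. By mapped reads, 505 were higher and 0 lower. With the Sox17 region whole, its unadjusted p was 0.0388 here, and 0.0201 (by mapped reads) to 0.525 (by total signal of all peaks) under the alternatives (limma).

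The size at Sox17 rested in part on the value set for WT replicate 3. Without that library the difference was 0.58 ± 0.45 (limma, adjusted p = 0.995), and within the 75 bp libraries, replicates 1 and 2, it was 0.38 ± 0.40 (limma, adjusted p = 0.998). Without KO replicate 1 the blocks no longer joined and were fitted as separate regions, with a difference of 0.96 ± 0.50 in the gene-body block and of -0.07 ± 0.49 in the upstream block. At Sox7 the difference was -0.24 ± 0.48 without WT replicate 3, -0.51 ± 0.50 within the 75 bp libraries and 0.25 ± 0.48 without KO replicate 1 (limma, lowest adjusted p = 0.995 of these). Neither gene was among the 718 regions called in all 6 libraries.

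**Figure D3:**
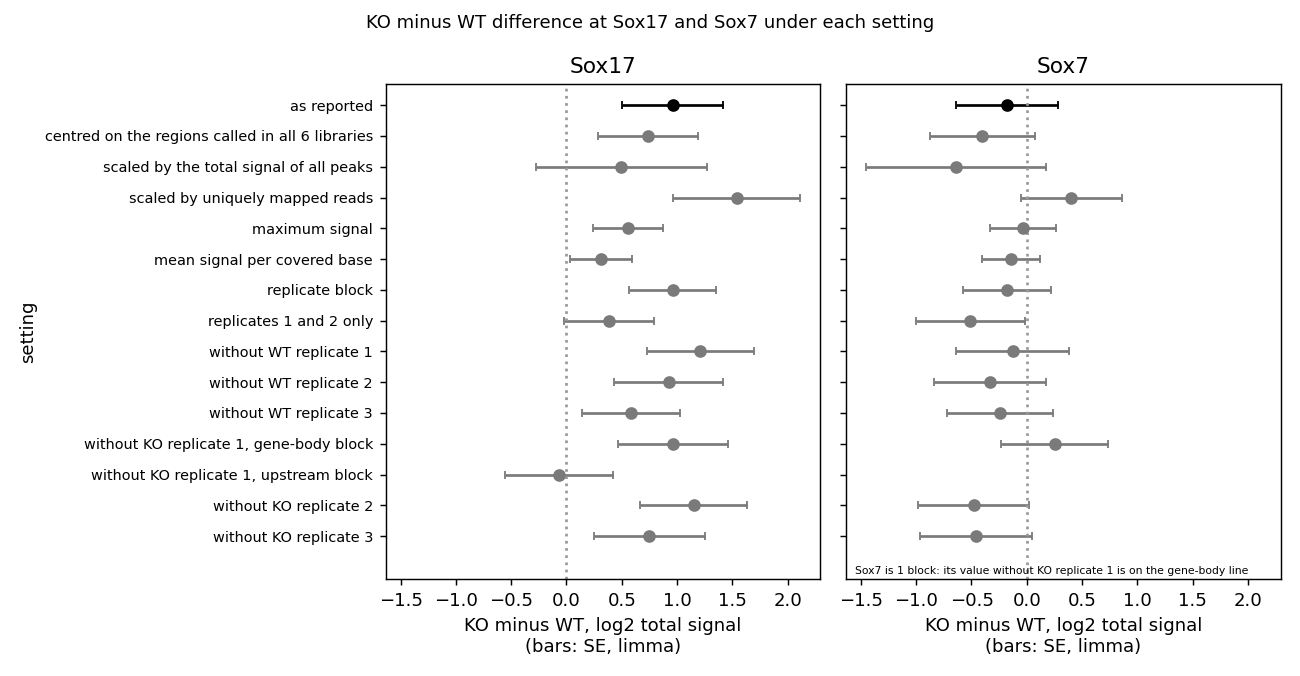
KO minus WT difference in log2 total H3K27me3 signal at Sox17 and Sox7 (points) with its SE from limma (bars), as reported (black) and under each alternative (grey). Sox17 lies at or above 0.31 except for the upstream block without KO replicate 1, at -0.07, and Sox7 lies between -0.64 and 0.40.

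The length covered by peaks, which is defined in every library, did not pass its test either. In the 11424 bp from the Sox17 gene end to 5 kb before its outermost TSS, peaks covered 8416, 6280 and 0 bp in WT replicates 1, 2 and 3 and 10665, 7324 and 5115 bp in KO replicates 1, 2 and 3. KO was higher in 3 of 3 same-numbered pairs (exact two-sided sign-flip test, p = 0.25, the smallest that 3 pairs allow). The groups overlapped, with means of 4899 ± 4370 and 7701 ± 2790 bp (SD, n = 3 each; exact two-sided permutation test, p = 0.5). In the Sox7 window of 12060 bp they covered 3683, 3391 and 0 bp in WT and 2657, 3990 and 2954 bp in KO, with means of 2358 ± 2050 and 3200 ± 700 bp (SD, n = 3 each; exact two-sided permutation test, p = 0.8). The difference at Sox7 turned from 842.3 to -336.7 bp without WT replicate 3, and that at Sox17 was 353.3 bp without it. Within the 75 bp libraries, replicates 1 and 2, the difference was 1646 bp at Sox17 and -213.5 bp at Sox7. With 3 libraries against 3 the smallest p is 0.1, so this test could not pass 0.05.

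Most genes of the Sox family outside SoxF were marked too. Of the 16 other Sox genes, 12 had a promoter peak in at least 1 library, against 15.9% of all coding genes. Sox1, Sox2, Sox21 and Sox10, factors of neural and neural crest cells, had peaks in all 6 libraries. Sox14, Sox11, Sox6 and Sox9 had the 5-library pattern of Sox7 and Sox17. Sox3 was called in 4 libraries, Sox8 in 4, Sox5 in 2 and Sox13 in 1, and Sox4, Sox12, Sox15 and Sox30 in none. Sox4 and Sox12 belong to group C, so that group, like SoxF, held marked and unmarked genes side by side.

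The order of Sox17 among the marked Sox genes changed between libraries. Its ratio to the median peak stood above that of Sox9, a factor of cartilage and glia, in WT replicate 1 (2.73 against 1.15) and below it in WT replicate 2 (2.58 against 3.38). Sox1 stood at 6.46, 5.96 and 1.12 in WT replicates 1, 2 and 3, compared with 2.88, 4.20 and 2.42 in KO. Sox17 exceeded Sox1 in KO replicates 1 and 3 and lay under it in the other libraries with a call. Sox7, at 0.624 to 1.64, overlapped with Sox11, at 0.650 to 1.89.

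**Figure D4:**
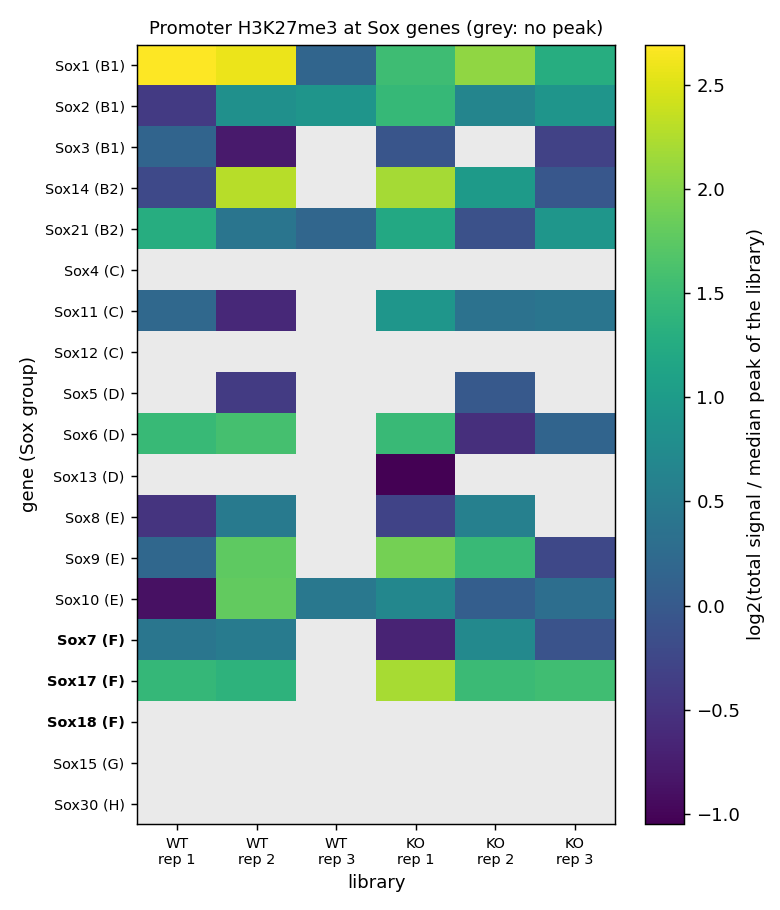
Promoter H3K27me3 at 19 Sox genes (rows, with their group) in 6 libraries (columns), coloured by the log2 ratio of total signal to the median peak of the library, with grey where no peak was called. Sox17 is above the median peak in 5 libraries, Sox7 is near it, and Sox18, Sox4, Sox12, Sox15 and Sox30 are grey throughout.

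Among 12 regulators and partners of SoxF factors, 3 had a promoter peak in any library, against 15.9% of all coding genes. Erg, an ETS factor of endothelium and stem cells, had the pattern of Sox7 and Sox17, at 1.31 and 1.09 times the median peak in WT and 1.94, 0.861 and 0.824 times in KO. Etv2, which starts the endothelial program, had a promoter peak in WT replicate 1 and in all 3 KO libraries, and a gene body peak in all 6 libraries. Kdr, the main VEGF receptor gene, had a promoter peak in WT replicate 2 alone and a gene body peak in 2 WT libraries. Fli1, Ets1, Tal1, Gata2, Notch1, Rbpj, Mef2c, Ctnnb1 and Vegfa had none.

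Among 18 endothelial target genes, 7 had a promoter peak in any library, against the same 15.9%. Cldn5, an endothelial tight junction gene, and Prox1, the lymphatic regulator downstream of Sox18, had peaks in the same 5 libraries as Sox17. Cldn5 was at 1.12 and 1.55 times the median peak in WT and 1.57, 1.89 and 0.952 times in KO, and Prox1 at 0.628 and 2.05 times in WT and 1.70, 1.25 and 2.16 times in KO. Hey2, a Notch target of arterial cells, was called in all 6 libraries. Unc5b was called in 5 and Hey1 in 4, and these calls included WT replicate 3. Nrp1 and Acvrl1 were called in 3 libraries each. The remaining listed targets had no promoter peak, namely Dll4, Efnb2, Gja4, Gja5, Cxcr4, Cdh5, Vcam1, Flt4, Rasip1, Robo4 and Tek. Flt4 had a gene body peak in 1 WT and 1 KO library.

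None of 10 genes of hemogenic endothelium and blood, among them Runx1, Gfi1 and Spi1, had a promoter peak, as was the case for 84.1% of all coding genes, and Gfi1 had a gene body peak in 1 KO library. Of 11 endoderm genes tied to Sox17, 8 had a peak in any library, against 15.9% of all coding genes, and Foxa1, Gata4, Gata6, Gsc and Eomes had it in all 6 libraries. Foxa2, a pioneer factor of endoderm, had the 5-library pattern and stood at 4.70 and 5.07 times the median peak in WT and 9.13, 3.33 and 2.81 times in KO. The lists were chosen with results of these data known, and their counts are descriptions.

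The genes most like each member were sought among the 815 other genes with a peak in the same 5 libraries, by the root mean square difference of the log2 ratio to the median peak. Closest to Sox17 were Foxe1 at 0.18, Lef1 at 0.23, Nkx3-2 at 0.26, Fam241b at 0.27 and Insm1 at 0.27. Foxe1, a forkhead factor gene of thyroid, had log2 ratios of 1.25 and 1.58 in WT and 2.36, 1.73 and 1.51 in KO. Likeness was chosen on these ratios, so a shared order of libraries is fixed by the choice. Closest to Sox7 were Gas7 at 0.17, Kcnj6 at 0.26, Gucy2e at 0.31, Tcerg1l at 0.32 and Aebp1 at 0.32. Gas7 had log2 ratios of 0.32 and 0.65 in WT and -0.35, 0.84 and -0.09 in KO. Sox17 and Sox7 were unlike each other, at 1.64, which placed Sox17 at 693 in the order of likeness to Sox7.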

How the data were processed

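H3K27me3 CUT&Tag of LT-HSCs was read from 6 peak files, 3 per genotype, grouped by their labels. The submitters' processing notes name Trim Galore 0.6.6, Bowtie2 2.4.4, bedtools 2.30 and SEACR 1.3. Per the study's methods, the authors aligned to GRCm38, removed multimapping and duplicate reads and called peaks per library with SEACR in stringent mode without a control. The deposited peak files used here give total and maximum fragment signal per peak, not scaled for depth. A fixed top share of peaks was kept in each library, and these files do not give the depth of a library. The study lists uniquely mapped reads per library, and these were used for a scaling alternative below. Genes came from GENCODE M21. Regions were tested with limma 3.58.1 (R 4.3.3), Benjamini-Hochberg adjusted over all regions and tested on simulated data; covered length was tested in Python 3.11.15 with scipy 1.17.1. Deviations of same-numbered libraries correlated at 0.277, 0.315 and 0.479 over 718 regions, and the numbers were used to pair libraries. The labels do not state such pairs. Between replicates 1 and 2 the crossed pairs were also positive, at 0.27 and 0.116, so these values did not establish which of them pair. Pairs of replicate 3 with another number were negative, at -0.441 to -0.281, and replicate 3 also differed in read length. Nothing in the labels says that libraries came from separate litters. For this mark the study names 2 independent experiments in a figure legend and 3 independent replicates elsewhere. The p-values measure the spread between these libraries, which may be technical. Genes named were the members, their neighbours within 100 kb, Sox genes, listed genes and the 5 genes most like a member. Members and lists were chosen with earlier results of these data known. RefSeq promoter sequences of the members were not used here.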

Additional observations from a re-analysis of the deposited data

How the results depend on the processing

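Adjusted p for the genotype difference stayed above the threshold of 0.05 under all 14 alternatives at Sox17 (0.339 to 1) and all 13 at Sox7 (0.528 to 1). With the replicate block, the differences of 0.96 at Sox17 and -0.18 at Sox7 had adjusted p of 0.93 and 0.978 (limma), and the sign-flip test over 3 pairs gave p = 0.25 at Sox17 and 0.75 at Sox7 for covered length, with 0.25 the smallest possible (exact); pairing changed no call. The difference at Sox7 turned positive when signal was scaled by uniquely mapped reads (0.40), a scaling under which the median of all regions moved to 0.64, from 0.06. Under the same scaling Sox17 was at 1.54. Scaled by the total signal of all peaks, where the median was -0.40, Sox17 was at 0.50 and Sox7 at -0.64. Centring on the regions called in all 6 libraries, chosen after seeing the data, moved the median of all regions to -0.16 and gave 0.74 at Sox17 and -0.40 at Sox7. By maximum signal the difference was 0.555 at Sox17 and -0.032 at Sox7. By mean signal per covered base it was 0.312 at Sox17, against 0.96 for total signal, and -0.142 at Sox7. Leaving out each library gave -0.07 to 1.21 at Sox17 (-0.07 is the upstream block alone, fitted apart without KO replicate 1, and the lowest value for the undivided region was 0.58) and -0.48 to 0.25 at Sox7 for signal, and 353.3 to 4561 bp at Sox17 and -336.7 to 1505 bp at Sox7 for covered length. In replicates 1 and 2 only, the difference in covered length was 1646 bp at Sox17 and -213.5 bp at Sox7. Keeping the strongest 1047 peaks of each library left Sox17 called in 0 WT and 2 KO libraries and Sox7 in 0 and 0, with a difference in covered length of 4679 bp at Sox17 and 0 bp at Sox7. Among peaks at or above the library median, Sox7 kept its call in 2 libraries of WT and in 1 of KO. The number of WT libraries with a call ranged from 1 to 2 and of KO libraries from 2 to 3 when 1 was left out, for Sox7 and for Sox17. Sox18 had no call under any alternative. The planned exact test of relative signal was not run, because no member was called in all 6 libraries. The peak files used here list no signal under the calling threshold, which limits what an absent peak says.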
